A study of Mus musculus with 12 samples.

Results

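The genes described here are Magea5, Magea8, Mageb16, Trap1a and Pet2, X-linked mouse genes of the Mage family and other genes grouped with the cancer-testis antigens. They are 5 of the 20308 genes in the deposited table, and were chosen from the contrast of Dnmt1cKO with Control in these same libraries, so their levels are given as a description and without a test. All 5 had counts in Dnmt1cKO libraries, and Trap1a alone had counts in a Control library. RNA was taken from urogenital sinus epithelium, the lining of the embryonic tube from which bladder neck, urethra and prostate form, of C57BL/6J mice at embryonic day 15.5. The 8 Dnmt1cKO libraries carried a deletion of Dnmt1, whose product copies DNA methylation after replication, made by a Shh-driven Cre that acts in epithelium; the 4 Control libraries were wildtype. The epithelium was freed from the stroma with trypsin, and the tissue of several embryos was pooled in each lysate, so males and females were not told apart by label. Whether the Controls carried the Cre or a floxed allele is not stated. The labels also do not state whether each library came from separate embryos, so the spread between libraries may be partly technical.

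Cancer-testis genes are normally active in germ cells of the testis, and some also in the placenta; in other adult tissues methylation of their promoters keeps them silent, and many tumours express them again. The MAGE family shares a domain that binds RING ubiquitin ligases. Its type I members, the MAGE-A, MAGE-B and MAGE-C genes, lie mostly on the X chromosome and belong to this class, whereas type II members such as Maged1 are used by many somatic tissues. In human cells, removing DNA methylation is known to switch on MAGE-A genes, whose promoters there hold ETS factor sites.

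Positions are those of GENCODE M21 on build GRCm38, the assembly also named mm10. Trap1a, which encodes P1A, the rejection antigen of a mouse mastocytoma, lies at 139333683 to 139338169 on the plus strand of the X chromosome. Pet2 lies at 89403848 to 89409689 on the minus strand; RefSeq gives this locus the symbol Dcaf8l and keeps Pet2 as an older name. It is therefore not a ferritin gene by annotation, and the ferritin-like genes of the X chromosome, the Fthl17 genes, have loci of their own. Mageb16 lies at 79623231 to 79671435, Magea8 at 154985775 to 154995850 and Magea5 at 155053061 to 155063145, all on the minus strand. Magea5 and Magea8 belong to a group of neighbouring Magea genes: Magea2 lies, in RefSeq, 19.7 kb from Magea5 and 31.4 kb from Magea8, and Magea1 and Magea3 flank the pair at 25.4 kb and 26.7 kb. In GENCODE the Magea2 gene runs from 155027201 to 155093666 on the same strand and so spans Magea5, and reads of the 2 genes may not be told apart where their exons overlap.

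Promoter sequences are shown because DNA methylation, the mark that Dnmt1 maintains, falls on the CpG pairs they contain, and the 4 genes differ in how many they have. RefSeq windows on GRCm38.p6 run from 250 bases before to 50 bases after a start site, 5′ to 3′ on the gene's strand, and capitals mark each CpG. They lie at chrX:139333433-139333732 on the plus strand for Trap1a, and on the minus strand at chrX:79671386-79671685 for Mageb16, chrX:154995801-154996100 for Magea8 and chrX:155061504-155061803 for Magea5.
Trap1a: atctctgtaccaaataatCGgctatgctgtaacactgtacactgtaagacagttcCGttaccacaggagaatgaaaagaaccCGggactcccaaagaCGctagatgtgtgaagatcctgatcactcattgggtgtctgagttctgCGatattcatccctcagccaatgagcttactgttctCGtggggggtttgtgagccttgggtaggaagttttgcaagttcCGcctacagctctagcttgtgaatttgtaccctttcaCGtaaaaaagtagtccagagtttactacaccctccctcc
Mageb16: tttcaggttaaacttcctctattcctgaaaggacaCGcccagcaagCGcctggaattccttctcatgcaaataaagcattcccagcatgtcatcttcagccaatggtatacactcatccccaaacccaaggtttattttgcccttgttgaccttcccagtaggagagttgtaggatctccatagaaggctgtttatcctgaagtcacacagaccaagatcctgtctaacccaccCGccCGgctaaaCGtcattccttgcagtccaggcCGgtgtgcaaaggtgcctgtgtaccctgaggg
Magea8: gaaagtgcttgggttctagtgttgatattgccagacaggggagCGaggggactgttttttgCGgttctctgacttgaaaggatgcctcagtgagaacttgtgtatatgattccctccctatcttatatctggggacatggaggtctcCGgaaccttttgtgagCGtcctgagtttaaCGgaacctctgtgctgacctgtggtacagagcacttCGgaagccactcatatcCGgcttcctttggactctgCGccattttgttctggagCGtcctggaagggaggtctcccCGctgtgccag
Magea5: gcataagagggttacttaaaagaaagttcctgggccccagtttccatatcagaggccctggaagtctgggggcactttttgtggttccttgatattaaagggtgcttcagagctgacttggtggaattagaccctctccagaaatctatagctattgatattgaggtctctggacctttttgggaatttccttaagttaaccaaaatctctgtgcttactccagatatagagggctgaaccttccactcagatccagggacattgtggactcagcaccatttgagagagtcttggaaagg
The Trap1a window held 8 CpG pairs, that of Mageb16 held 6, that of Magea8 held 10 and that of Magea5 held 0. Over 32851 RefSeq windows of the same length the median was 7. The windows of Trap1a, Mageb16 and Magea8 were thus near the middle of all windows, and that of Magea5 at the bottom: fewer CpG pairs than in Magea8 were found in 56.5% of windows, and fewer than in Mageb16 in 43.6%. The Magea5 window starts at a RefSeq transcript start that lies inside the GENCODE gene, so it may not be the start used in these cells. On either strand, the ETS-type word CGGAAG was found in the Magea8 window alone, at position -37 from the start site, and 16.9% of all windows hold it. The word CCAAT was found in the windows of Mageb16, at position -151, and of Trap1a, at -88 and -124 on opposite strands; 37.4% of all windows hold it. CACGTG (7.15% of windows), TCCCGC (20% of windows) and TATAAA (13.6% of windows) were not found in these 4 windows.

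Depth sets what could be seen. The Dnmt1cKO libraries held 4007533 to 11970907 expected counts, against 7577706, 2915193, 1613514 and 543591 in Controls 1, 2 and 3 and the library labelled Control 4. Levels are given in CPM, that is, counts brought to 1 common library total with TMM factors. At these depths a library with 0 counts allows, at 3 counts, up to 0.218 to 0.854 CPM in Dnmt1cKO, and up to 0.368, 1.01, 2.26 and 8.51 CPM in the Controls in the order above. A count of 0 over all 4 Controls allows up to 0.234 CPM. These limits cover counting error only. The deleted gene itself, Dnmt1, ranged from 22.8 to 96.7 CPM in Dnmt1cKO with a median of 50.5, and stood at 164, 114, 236 and 2.84 CPM in the Controls. The last of these was a single count (exact Poisson 95% interval 0.0718 to 15.8 CPM) and lay below every Dnmt1cKO library, against its label. The difference in mean log2 CPM of Dnmt1 was -0.43, with p = 0.667 in a two-sided exact permutation test, and -1.64 with p = 0.00606 without the library labelled Control 4 (exact permutation test, the smallest p it can give). Without Control 3 the difference was 0.17 (exact permutation p = 0.879). Epithelial markers were found in every library, at a summed 4670 to 7720 CPM in Dnmt1cKO and 3720 to 25300 CPM in Control. Stromal markers summed to 265 to 6220 CPM in Dnmt1cKO and 1270 to 9990 CPM in Control, highest in Control 3, and their part in the results was not tested.

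Trap1a was by far the most abundant of the 5 genes. In Dnmt1cKO its level ran from 87.8 to 234 CPM with a median of 176, and it was 0, 0, 82.7 and 0 CPM in Control 1, Control 2, Control 3 and the library labelled Control 4. Every Dnmt1cKO library lay above every Control, as for 2.59% of all genes tested, though Dnmt1cKO 1, the lowest, was only just above Control 3. The means were 175 ± 51 CPM in Dnmt1cKO (SD, n = 8) and 20.7 ± 41.4 CPM in Control (SD, n = 4), a ratio of 8.44. Pooled over libraries, which gives deep libraries more weight, the ratio was 19.5. Both ratios rest on Control 3: without it the other Controls held 0 counts, and the pooled level in Dnmt1cKO was at least 640-fold higher, with 3 counts over the group as the floor. Without Control 1, the deepest Control, the pooled ratio was 7.08. Control 3 held 110 counts of Trap1a in a library of 1613514, whereas Control 1 held 0 in 7577706.

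Control 3 also stood apart in other genes. Gcm1, a transcription factor of placental trophoblast, ran from 0.52 to 3.5 CPM in Dnmt1cKO, against 12.5, 34.3 and 308 CPM in Controls 1, 2 and 3 and 0 in the library labelled Control 4. It fell in Dnmt1cKO (edgeR adjusted p = 0.000813). Of the 7 trophoblast markers, Tpbpa, Prl3d1, Prl2c2 and Cdx2 were at 0 in all 12 libraries. Ascl2 had 13 counts in Dnmt1cKO and 0 in Control. At its pooled Dnmt1cKO level the shallower Controls would have held 2.2 counts, so Ascl2 was too scarce to compare. Hand1 averaged 0.829 ± 1.29 CPM in Dnmt1cKO and 1.17 ± 1.41 CPM in Control (SD, n = 8 and 4) and was not called. The summed level of the 7 was 0.624 to 7.1 CPM in Dnmt1cKO and 2.84 to 308 CPM in Control. Since Trap1a is a gene of placenta as well as testis, these values are set beside its level; their part in it was not tested.

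Pet2 was found in all 8 Dnmt1cKO libraries and in no Control. Its level ran from 7.39 to 44.6 CPM in Dnmt1cKO with a median of 30.2, and was 0 in each of the 4 Controls. Dnmt1cKO 2 was the lowest and Dnmt1cKO 3 the highest, and the groups did not overlap. The pooled level was at least 137-fold higher in Dnmt1cKO (2423 counts, against 0 in Control). At the pooled Dnmt1cKO level the Controls would have held 411 counts, so the Controls were deep enough to show it. Without Control 1 the bound was 49.8-fold.

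**Figure D1:**
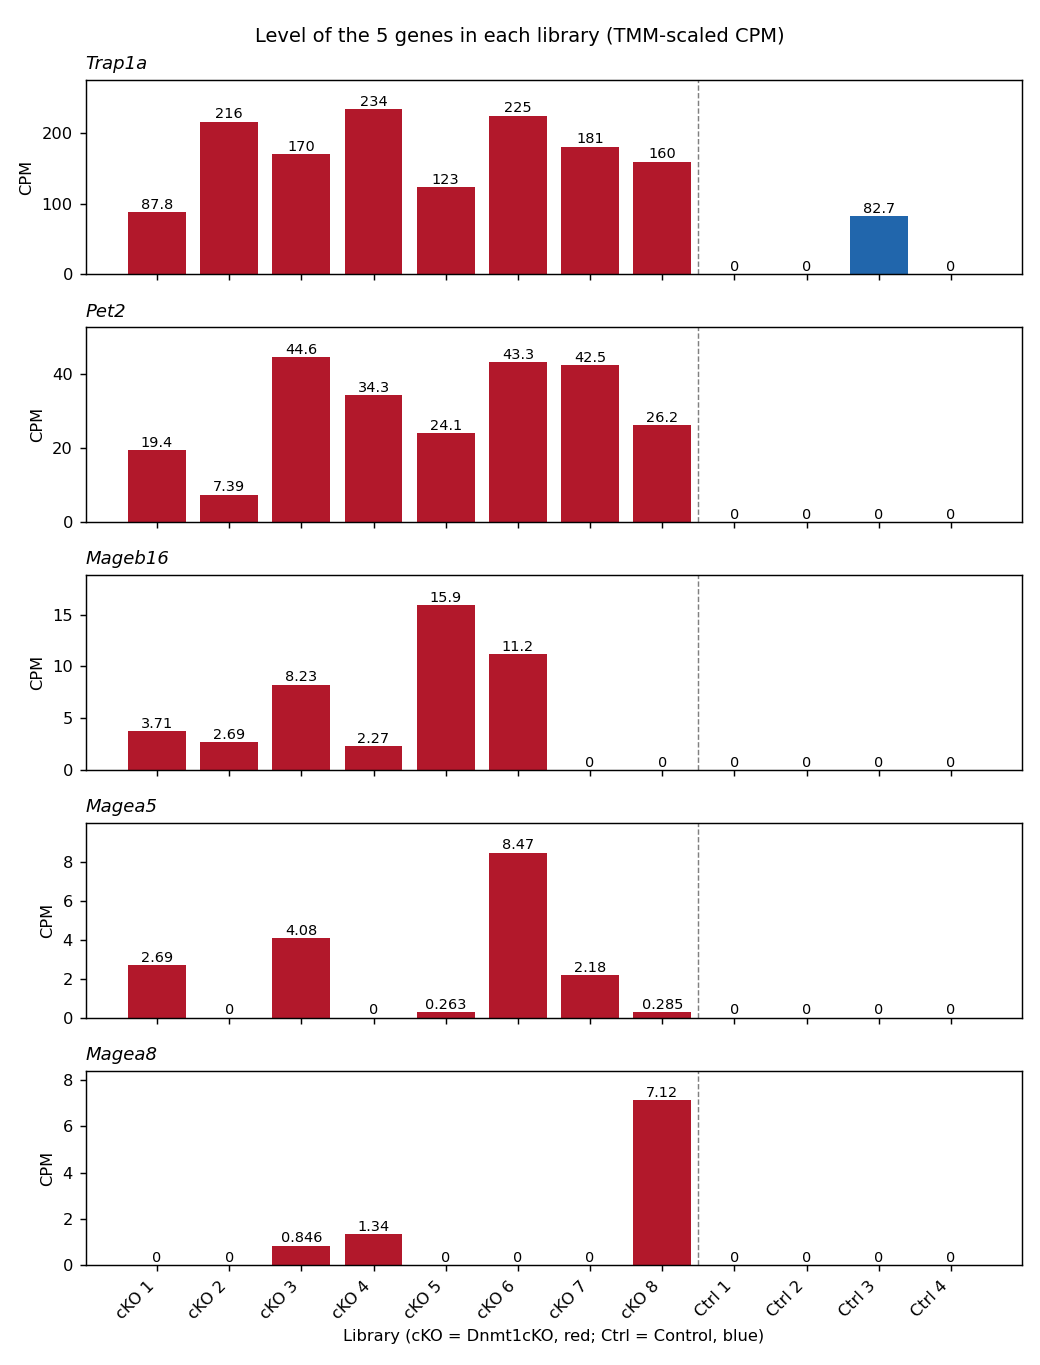
Bars show the level of each of the 5 genes, in TMM-scaled CPM on linear axes that differ between panels, in the 8 Dnmt1cKO libraries (red, left) and the 4 Control libraries (blue, right); each bar is 1 library. Trap1a and Pet2 are present in all 8 Dnmt1cKO libraries, the 3 Mage genes in some of them, and the only Control bar is Trap1a in Control 3 at 82.7 CPM.

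The 3 Mage genes were found in some Dnmt1cKO libraries and missing from others. Mageb16, a MAGE-B gene, ran from 0 to 15.9 CPM in Dnmt1cKO with a median of 3.2, and was 0 in each Control. It had 182 counts in Dnmt1cKO 5 and 112 in Dnmt1cKO 6, but 0 in Dnmt1cKO 7 and Dnmt1cKO 8. Dnmt1cKO 7 held 9146376 counts in all, close to Dnmt1cKO 6 with 9623404: 0 counts in Dnmt1cKO 7 allow up to 0.312 CPM, while Dnmt1cKO 6 stood at 11.2 CPM. The pooled level of Mageb16 was at least 27.5-fold higher in Dnmt1cKO than in Control.

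Magea5 ran from 0 to 8.47 CPM in Dnmt1cKO with a median of 1.23, and was 0 in each Control. It was found in 6 of 8 Dnmt1cKO libraries, highest in Dnmt1cKO 6, and missing from Dnmt1cKO 2 and Dnmt1cKO 4. In Dnmt1cKO 8 it rested on a single count. The pooled level was at least 11.3-fold higher in Dnmt1cKO (200 counts, against 0 in Control).

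Magea8 was the scarcest, with 49 counts over all Dnmt1cKO libraries and 0 over the Controls. It was found in 3 of 8 Dnmt1cKO libraries, at 0.846 CPM in Dnmt1cKO 3, 1.34 CPM in Dnmt1cKO 4 and 7.12 CPM in Dnmt1cKO 8, and was 0 in the other 5 and in each Control. At the pooled Dnmt1cKO level the Controls would have held 8.31 counts together, so the difference is at the edge of what their depth can show, and the bound was 2.77-fold. Without Control 1 the bounds were 1.01-fold for Magea8, 4.11-fold for Magea5 and 9.99-fold for Mageb16. Without Dnmt1cKO 8 the bound for Magea8 was 1.48-fold.

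The spread between Dnmt1cKO libraries separated the genes into steady and patchy ones. The coefficient of variation between the 8 libraries, the SD as a percentage of the mean, was 29.2% for Trap1a and 44% for Pet2, against 104% for Mageb16, 131% for Magea5 and 212% for Magea8. It rose as the mean fell, so scarce counts and uneven expression are mixed in it. Per kilobase of exon, the scale on which genes can be compared, the mean level in Dnmt1cKO was 148 CPM per kb for Trap1a, 7.22 for Pet2, 2.83 for Mageb16, 1.37 for Magea5 and 0.706 for Magea8. The ranges of Magea5, Magea8 and Mageb16 over the libraries overlapped from 0 upwards, so their order is not beyond their spread. The order of the libraries differed between some genes and was alike in others. Dnmt1cKO 6 was highest in Magea5 and second highest in Mageb16, Pet2 and Trap1a, and Dnmt1cKO 3 was highest in Pet2 and second highest in Magea5. Dnmt1cKO 8, highest in Magea8, had no Mageb16, and Dnmt1cKO 5, highest in Mageb16, had no Magea8.

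Sample descriptions carry a code of the letter b and a number, which the labels do not explain and which both groups share for 4, 5, 6 and 7. Pet2 stood at 44.6, 34.3, 24.1 and 37.3 CPM in the Dnmt1cKO libraries of these codes, against 0 in each matching Control. Trap1a stood at 170, 234, 123 and 189 CPM, against 0, 0, 82.7 and 0 CPM, so it was higher in Dnmt1cKO within each code. Mageb16 stood at 8.23, 2.27, 15.9 and 3.72 CPM, against 0 in each. Magea5 stood at 4.08, 0, 0.263 and 3.65 CPM and Magea8 at 0.846, 1.34, 0 and 2.37 CPM, also against 0 in each, so under code 5 Magea5 and under code 6 Magea8 were at 0 in both groups. Under code 6 the level of Magea5 was below the 2.26 CPM that 0 counts allow in Control 3. Under code 7 the Control is the library labelled Control 4, where 0 counts allow up to 8.51 CPM, so only Trap1a and Pet2 could be told from it.

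Reads of near-identical copies limit the Mage values more than the others. Of the 50-base words in GENCODE transcripts of Magea5, 46.2% also occur in transcripts of other genes, with Magea8 the closest at 34.6%. For Magea8 41.5% and for Mageb16 55.1% were shared, the last with the copy annotated as Mageb16-ps2. Trap1a and Pet2 shared 0%. The read length is not given in the sources used here, and the authors' counting shared such reads out among genes, so counts of Magea5, Magea8 and Mageb16 may hold reads of their copies.

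The rest of the type I MAGE family gives the setting of these genes. The table holds 15 such genes, the 3 above included. Of the other 12, 9 had counts in Dnmt1cKO and 1, Mageb4, had counts in Control. Mageb4, a MAGE-B gene, was found in all 8 Dnmt1cKO libraries, from 4.88 to 27.3 CPM with a median of 9.31, and stood at 1.5 CPM in Control 3, as 2 counts, and at 0 in the other Controls. The groups did not overlap, and the pooled ratio was 86.2 (exact 95% counting interval 23.8 to 712). Its log2 fold change was 5.29 ± 1.68 (SE) and missed the threshold (edgeR, adjusted p = 0.0823); it passed without Control 3 and in DESeq2. It was the single gene of the 12 to pass the filter on low counts, so edgeR called 0 of 1, against 1.03% of all genes called higher. At an unadjusted p under 0.05 in edgeR it was higher, as were 8.19% of all genes. Mageb4 passed the filter through the Dnmt1cKO libraries, where it is high, so nothing is read from these shares. Mageb4 shares 50.1% of its 50-base words with the pseudogene Mageb10-ps. It was named after its values were seen.

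Among the other type I genes, Mageb18 was found in 7 of 8 Dnmt1cKO libraries, with 116 counts in all. Magea3 had 59 counts, all in Dnmt1cKO 7, and Magea1 had 20 counts, all in Dnmt1cKO 3. Magea2, the neighbour between Magea8 and Magea5, had 53 counts in 3 libraries, and Magea4 and Magea10, which lie elsewhere on the chromosome, had 46 and 53. Mageb1 and Mageb2, which share most of their sequence, had 9 counts each in the same libraries, as reads divided evenly between them would give. Magea6, Mageb3 and Mageb5 had 0 counts in all 12 libraries. Mageb3 is the single one of the 15 that is not on the X chromosome but on chromosome 2.

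**Figure D2:**
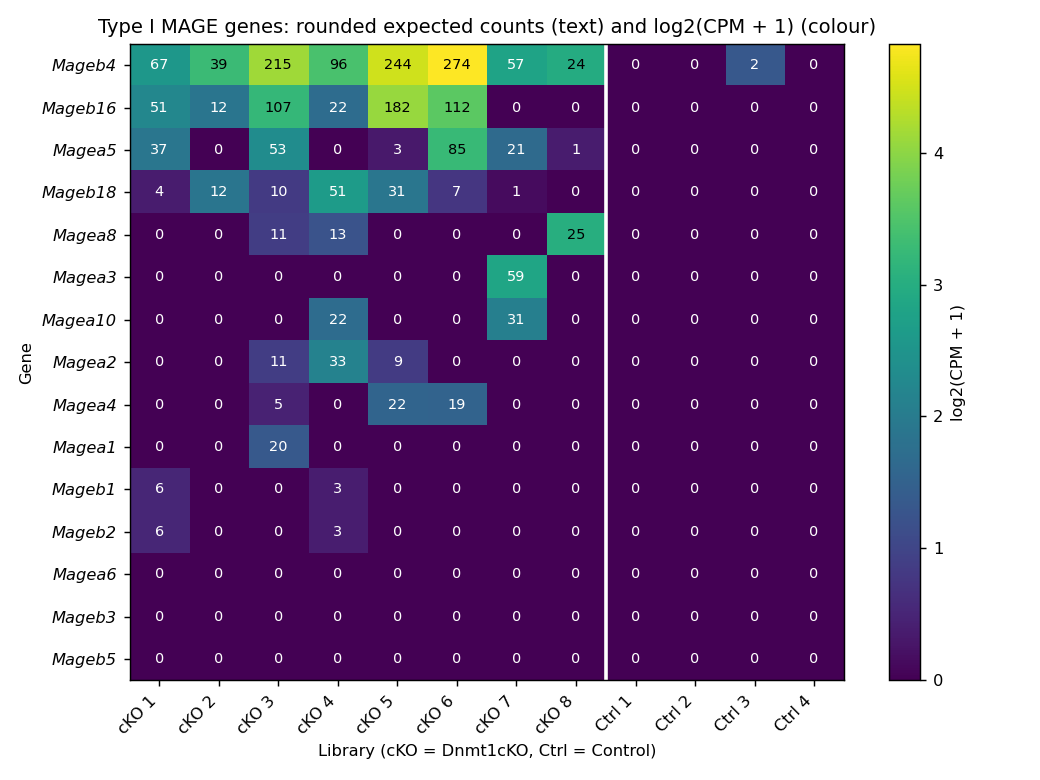
Rows are the 15 type I MAGE genes of the table and columns the libraries, Dnmt1cKO on the left of the white line and Control on the right; printed numbers are rounded expected counts and colour is log2(CPM + 1). Mageb4 fills all 8 Dnmt1cKO columns, most other genes fill a few, and the Control columns are 0 except for 2 counts of Mageb4 in Control 3.

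Summed over the 15 type I genes the level was 12.4 to 49.5 CPM in Dnmt1cKO, and 0, 0, 1.5 and 0 CPM in the 4 Controls, with no overlap. The number of these genes with a count was 3 to 8 in Dnmt1cKO libraries and 0, 0, 1 and 0 in Control. Dnmt1cKO 2 and Dnmt1cKO 8, with 4007533 and 4009772 counts, had 3 each, and Control 1, with 7577706 counts, had 0. The part of depth was not tested. Both the sum and the number include Magea5, Magea8 and Mageb16, which were chosen with the contrast known, so nothing is read from the lack of overlap. The 3 genes of Dnmt1cKO 8 were Magea5 (1 count), Magea8 (25 counts) and Mageb4 (24 counts). Without the chosen genes Dnmt1cKO 8 had Mageb4 alone, as had Control 3, so the number of genes then no longer separated the groups.

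**Figure D3:**
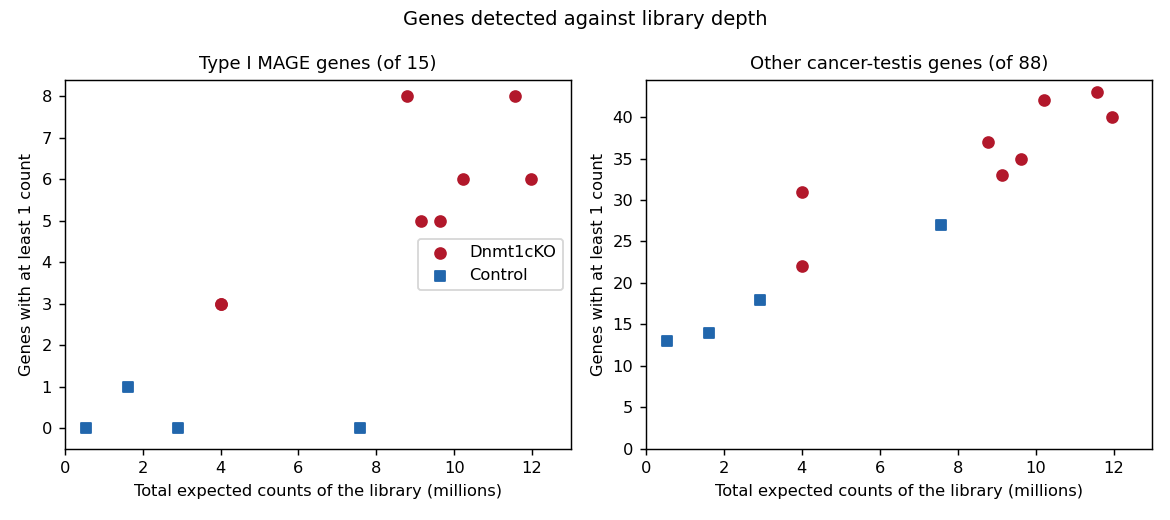
Each point is 1 library, placed by its total of expected counts and the number of genes with at least 1 count, for 15 type I MAGE genes (left) and 88 other cancer-testis genes (right); Dnmt1cKO is red and Control blue. On the left a pair of Dnmt1cKO libraries with 3 genes each lie on top of each other, above the deeper Control 1 with 0 genes, and on the right the counts climb with depth in both groups. The 15 genes on the left include Magea5, Magea8 and Mageb16, which were chosen from this contrast.

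In the fit over the whole table, edgeR called 132 of 12761 genes higher (1.03%) and 198 lower (1.55%) in Dnmt1cKO at an adjusted p under 0.05, and for 2.59% of genes all Dnmt1cKO libraries lay above all Controls. The filter on low counts kept 4 of the 5 genes and dropped Magea8. Of these 4, Pet2 was among the genes called higher, and Trap1a and Pet2 were the 2 without overlap; since the contrast chose the genes, nothing is read from these counts. The fitted log2 fold changes were 3.05 ± 1.40 (SE) for Trap1a, 7.07 ± 2.88 for Magea5, 8.35 ± 2.79 for Mageb16 and 10.80 ± 1.91 for Pet2; the last 3 had no Control counts, so these sizes depend on the prior count of the fit.

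Of the other 88 genes in the table from a list of mouse counterparts of human cancer-testis genes, 57 had counts in Dnmt1cKO and 32 in Control. Of the 33 that passed the filter, 2 rose and 0 fell (edgeR quasi-likelihood, Benjamini-Hochberg), against the 1.03% and 1.55% of all genes called in these directions. In edgeR 10 were higher and 1 was lower at an unadjusted p under 0.05, where 8.19% of all genes were higher and 9.54% lower. DESeq2 called 5 higher and 1 lower, against 4.01% and 8.47% of all genes. The median log2 fold change of the 33 was 1.73, against 0.22 for all genes tested. Of the 33, 8 had 0 counts in Control, and others, Mael among them, had counts in 1 Control library alone. Such genes passed the filter only or mainly through Dnmt1cKO. This raises the median and the numbers of genes called higher, so nothing is drawn from them. Sycp1, which encodes the central filament of the synaptonemal complex of meiosis, ran from 34.1 to 117 CPM in Dnmt1cKO with a median of 74.5, and was 0 in each Control (log2 fold change 12.10 ± 1.56 SE, edgeR adjusted p = 2.57e-05). Mael, which acts in piRNA silencing of mobile elements in germ cells, ran from 0.569 to 37.9 CPM in Dnmt1cKO with a median of 18, and was 0 in each Control but Control 3, at 0.752 CPM (log2 fold change 7.07 ± 1.77 SE, edgeR adjusted p = 0.0236). Dnmt1cKO 8, the lowest for Mael with 2 counts, lay below Control 3, so its groups overlapped. Without the library labelled Control 4, and without Dnmt1cKO 3, the count was 1 higher gene, Sycp1, and without Control 1 or without Dnmt1cKO 2 it was 4.

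Among these 33, the groups did not overlap for 3, against 2.59% of all genes: Sycp1, Hormad1 and Spa17, the last 2 named after their values were seen. All 3 were at 0 in Control and passed the filter only through Dnmt1cKO, so any count in each Dnmt1cKO library gives no overlap. Spa17 had 1 count in Dnmt1cKO 2, and nothing is read from this share. Hormad1, a protein of the meiotic chromosome axis, averaged 6 ± 6.73 CPM in Dnmt1cKO (SD, n = 8) and 0 in Control (n = 4). Spa17, a sperm surface protein, averaged 7.33 ± 10.6 CPM in Dnmt1cKO (SD, n = 8) and 0 in Control (n = 4). Neither passed the test over all genes (edgeR, Benjamini-Hochberg adjusted p = 0.0695 for Hormad1 and 0.0603 for Spa17). Acrbp, of the same list, went the other way and missed more narrowly (log2 fold change -5.69 ± 1.44 SE, edgeR adjusted p = 0.0509). It averaged 3.07 ± 3.64 CPM in Dnmt1cKO and 164 ± 260 CPM in Control (SD, n = 8 and 4). Its groups overlapped, and the library labelled Control 4 was highest, at 550 CPM. The number of the 88 genes with a count was 22 to 43 in Dnmt1cKO libraries and 27, 18, 14 and 13 in the Controls. Here the counts rose with depth in both groups, so this number does not separate them.

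The type II MAGE genes, which many somatic tissues use, were found in both groups: all 9 in the table had counts in Dnmt1cKO and in Control. Maged1, a regulator of cell death and neurotrophin signalling, averaged 288 ± 43.7 CPM in Dnmt1cKO (SD, n = 8) and 354 ± 52.8 CPM in Control (SD, n = 4), a log2 fold change of -0.30 ± 0.36 (SE) that was not called (edgeR adjusted p = 0.722). Maged2 averaged 207 ± 138 CPM in Dnmt1cKO and 395 ± 348 CPM in Control (SD, n = 8 and 4). Of the 7 tested, 0 rose in edgeR, against 1.03% of all genes, and 1 fell, Ndnl2, against 1.55%. At an unadjusted p under 0.05 in edgeR 0 were higher, against 8.19% of all genes. DESeq2 called 0 higher, against 4.01%. With 7 genes, 0 higher cannot be told from these shares. Ndnl2 encodes a subunit of the SMC5/6 complex. Ndnl2 ran from 13.4 to 29.2 CPM in Dnmt1cKO and stood at 13.1, 40.4 and 25.6 CPM in Controls 1, 2 and 3 and at 613 CPM in the library labelled Control 4. Its call (log2 fold change -2.85 ± 0.70 SE, edgeR adjusted p = 0.0217) rested on that library and was lost without it.

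**Figure D4:**
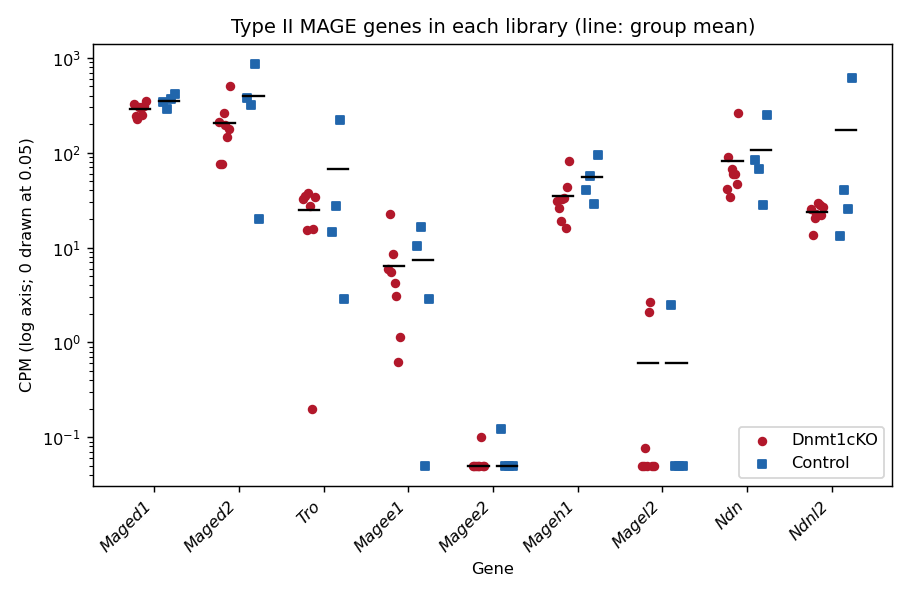
Points are CPM on a log axis for the 9 type II MAGE genes in each Dnmt1cKO library (red circles, left of each pair) and each Control library (blue squares), with lines at group means, and with points and lines below 0.05 drawn at 0.05. The groups overlap for all 9 genes, and the highest Ndnl2 value, 613 CPM, is the library labelled Control 4.

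Ferritin genes were set beside Pet2 because the gene has been described as ferritin-like. Fth1, the heavy chain of the iron store ferritin, averaged 276 ± 40.7 CPM in Dnmt1cKO (SD, n = 8) and 306 ± 210 CPM in Control (SD, n = 4). Ftl1, the light chain, averaged 478 ± 75.9 CPM in Dnmt1cKO and 902 ± 817 CPM in Control (SD, n = 8 and 4). Neither of these 2 was called in edgeR. At an unadjusted p under 0.05 in edgeR 0 were higher and 1, Ftl1, was lower, against 8.19% and 9.54% of all genes. DESeq2 called Ftl1 lower, as it did 8.47% of all genes. Ftl1 stood at 426, 339 and 743 CPM in Controls 1, 2 and 3 and at 2100 CPM in the library labelled Control 4. Pooled over libraries its ratio to Control was 0.958. With 2 genes, nothing is read from these shares. Ftmt, the mitochondrial ferritin, had 0 counts in all 12 libraries, and Fthl17 had 27 counts, in 2 of 8 Dnmt1cKO libraries, and 0 in Control.

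All 5 genes are X-linked. Their choice by family bears on this, since type I MAGE genes lie mostly on the X chromosome, so nothing is read from it. Of 464 X-linked genes tested, 23, Pet2 among them, were called higher in Dnmt1cKO (4.96%), against 97 of 11711 autosomal genes (0.828%). Called lower were 11 X-linked genes (2.37%) and 175 autosomal genes (1.49%). A chromosome was found in GENCODE for 12175 of the 12761 genes tested, and no test was made of the shares. The sex make-up of the pools bears on X-linked genes, and the Y-linked genes Ddx3y, Eif2s3y, Kdm5d and Uty summed to 176 to 411 CPM in Dnmt1cKO and 187 to 392 CPM in Control, so male tissue was present in every library and the ranges overlapped.

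Genes next to Trap1a, Mageb16 and Pet2 on the chromosome were either called in neither direction or too scarce to test. Mum1l1, 95.3 kb from Trap1a, averaged 12.8 ± 14.9 CPM in Dnmt1cKO (SD, n = 8) and 12 ± 13.5 CPM in Control (SD, n = 4), and D330045A20Rik, 142 kb away on the other side, averaged 3.14 ± 2.47 CPM and 4.79 ± 7.43 CPM in the same groups. Tmem47, 1400 kb from Mageb16, averaged 12.7 ± 9.12 CPM in Dnmt1cKO and 7.69 ± 8.55 CPM in Control. None of these 3 was called (edgeR adjusted p = 0.824 to 0.994). Gm7173, 106 kb from Mageb16, and 4932429P05Rik, 343 kb from Pet2, had 0 counts in all libraries, and Il1rapl1, 1290 kb from Pet2 on the other side, had 3 counts in Dnmt1cKO and 41 in Control.

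The 8 Dnmt1cKO libraries alone were also compared for the 4 genes other than Magea8, which was too scarce. As a description over 8 libraries that share depth and tissue make-up, Pearson's r of log2(CPM + 2) was 0.564 between Pet2 and Magea5, 0.364 between Magea5 and Mageb16, 0.148 between Trap1a and Pet2 and -0.144 between Trap1a and Mageb16. Of 12757 other genes searched, those most like Pet2 were Gramd1a, Nupr1 and Col9a3 (r from 0.974 to 0.979), those most like Trap1a were Mrpl49, Coq10b and Slc33a1 (0.904 to 0.972), those most like Magea5 were Naa11, Myh13 and Zadh2 (0.968 to 0.982), and those most like Mageb16 were Cstf2t, Pskh1 and Hoxa6 (0.915 to 0.944). These are the highest values of a search over many genes in few libraries, and nothing is read from them.

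Germ cells, in which cancer-testis genes are normally active, were looked for by 10 markers. Pou5f1, Dppa3, Nanos2 and Prdm14 had 0 counts in all 12 libraries. Ddx4, an RNA helicase of germ cells, averaged 25.2 ± 14.2 CPM in Dnmt1cKO (SD, n = 8) and 0 in Control (n = 4), and was at 0 in Dnmt1cKO 2. It was called higher (log2 fold change 10.54 ± 2.24 SE, edgeR adjusted p = 0.00805), as were 1.03% of all genes. With 0 Control counts it passed the filter only through Dnmt1cKO, and this size depends on the prior count, so nothing is read from the call. Kit, found also in other cells, averaged 36 ± 24.7 CPM in Dnmt1cKO and 24.6 ± 42 CPM in Control (SD, n = 8 and 4). Nanos3, Dnd1 and Sall4 had 14, 91 and 89 counts in Dnmt1cKO and 0 in Control. At their pooled Dnmt1cKO levels the shallower Controls would have held 2.37, 15.4 and 15.1 counts, so Nanos3 was too scarce to compare. Nanog averaged 13 ± 18.7 CPM in Dnmt1cKO and 5.2 ± 4.65 CPM in Control (SD, n = 8 and 4) and was not called (edgeR adjusted p = 0.661). The summed level of the 10 was 61 to 94.5 CPM in Dnmt1cKO and 4.71 to 92.5 CPM in Control. Kit made up 87.3 of the 92.5 CPM in Control 1 and all of the 84 CPM in Dnmt1cKO 2, so the sum there mostly reflects Kit. The part of germ cells in the levels above was not tested. In bulk tissue, fewer cells of a type and less RNA per cell cannot be told apart, nor can a few cells with much Trap1a be told from many with little.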

How the data were processed

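RNA of 12 libraries was analysed from the deposited table of RSEM expected counts for 20308 gene symbols, which the authors did not scale between libraries. Per the submitters' processing notes, reads were processed with RSEM 1.2.3, Bowtie 0.12.9 and bcl2fastq 2.17.1.14 on build mm10; annotation, read length and use of strand were not given in the sources used here. Polyadenylated RNA was primed with random hexamers, per the labels' protocols, and no molecular identifiers are mentioned. Groups and replicate numbers came from sample titles.

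Expected counts were rounded. Genes were kept by filterByExpr (minimum count 10, minimum total 15), which left 12761. Dnmt1cKO was tested against Control with edgeR 4.0.16 in R 4.3.3 (TMM, robust quasi-likelihood, genotype only), with p-values adjusted over the whole table (Benjamini-Hochberg, threshold 0.05), and with DESeq2 1.42.0 as an alternative. The script was tested on simulated data. The square root of the common dispersion was 0.984. A ratio against 0 counts is a lower bound at 3 counts over the group. Exact intervals are at 95%.

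The genes and lists were chosen with earlier results of these data known; the list of cancer-testis genes came from general knowledge. The lists were type I MAGE, type II MAGE, other cancer-testis and ferritin genes, and markers of epithelium, stroma, germ cells, endothelium, blood and trophoblast, with Y-linked genes. Endothelial markers summed to 4.78 to 57.5 CPM in Dnmt1cKO and 8.51 to 142 CPM in Control, and blood markers to 9.04 to 267 and 5.67 to 486 CPM in these groups. List counts leave out the 5 genes. Named genes were the 5 genes, Dnmt1, up to 6 called genes per list and direction, the 3 genes most like each by Pearson's r, the nearest genes on either side and the Y-linked genes.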

Additional observations from a re-analysis of the deposited data

Results flagged for a closer look

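In 19 groups of libraries checked for a library far from the others, 6 were found, and chance alone gives about 1 in 20 for normally distributed values. In a group otherwise at 0 any count stands apart by construction, so less can be read from Trap1a, Mageb4 and Mael below. In Dnmt1cKO, Magea8 was far higher in Dnmt1cKO 8, at 7.12 CPM, than in the other 7 libraries. In Control, Control 3 was the high library for Trap1a (82.7 CPM), Gcm1 (308 CPM), Mageb4 (1.5 CPM, 2 counts) and Mael (0.752 CPM, 1 count), and for Trap1a, Mageb4 and Mael the other Controls were at 0. The library labelled Control 4 was the high one for Ndnl2, at 613 CPM.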

How the results depend on the processing

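The 5 genes were chosen from this contrast, so their calls are given as a description only: Pet2 was called higher in each fit but that with the title number as a replicate block, Trap1a, not called in the edgeR fit of all 12 libraries, was called with either replicate block, without Control 3 and without Control 3 and the library labelled Control 4, and Mageb16 was called in DESeq2. The mean levels of the 5 genes in Dnmt1cKO moved by less than 1 SD under RLE factors, library totals, unrounded counts and each library left out. In Control, Pet2, Mageb16, Magea5 and Magea8 stayed at 0. The Control mean of Trap1a, 20.7 CPM, fell to 0 without Control 3. Leaving out each library in turn gave pooled ratios to Control from 7.08 upwards for Trap1a. Without Control 3 its value, 640, is a lower bound against 0 counts and not a ratio. Bounds for the others were 49.8 to 149 for Pet2, 9.99 to 31.5 for Mageb16, 4.11 to 13.1 for Magea5 and 1.01 to 3.38 for Magea8. Leaving out each library also gave 0 to 1 type I genes higher, 0 to 1 type II genes lower, and 1 to 4 other cancer-testis genes higher and 0 to 1 lower. With RLE factors 5 cancer-testis genes were higher, and 1 (Acrbp) and 1 ferritin gene (Ftl1) lower. Library totals alone gave 0 type II genes and 1 cancer-testis gene lower. DESeq2 gave 1 type I gene higher, 5 cancer-testis genes higher and 1 lower, and 1 ferritin gene lower. Without Control 3 and the library labelled Control 4, chosen after the data were examined, Trap1a was at least 649-fold higher, 0 type II genes were lower and 1 cancer-testis gene higher. The permutation p of Dnmt1 was 0.0222 then, 0.00606 to 1 with each library left out, and 0.879 with the difference turned to 0.17 without Control 3. The cause was not tested. Over all genes, 170 were higher and 726 lower with RLE factors, 113 and 46 with library totals, 487 and 1030 in DESeq2, 60 and 36 without the library labelled Control 4, 657 and 494 without Control 1, and 45 and 2 with both Control 3 and that labelled Control 4 left out.

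With the b code as a replicate block, 0 type II genes were lower and 1 cancer-testis gene lower, with 135 genes higher and 72 lower in all; with the title number as a replicate block in libraries 1 to 4, 0 type II genes were lower and 1 cancer-testis gene higher, with 21 and 29 in all. Deviations of libraries with the same code correlated at -0.063 to 0.118, and of those with the same title number at -0.056 to 0.061. The other pairs ran from -0.147 to 0.104, so the ranges overlapped. For the library labelled Control 4, the Dnmt1cKO libraries of its code gave 0.07, 0.118 and 0.05, and all others were below 0. Control 2 gave -0.063 with the library of its code. Whether either number pairs the libraries was not tested.

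Depth limits Magea8 and every level in the library labelled Control 4, where 1 count is 2.84 CPM.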
